A study of Homo sapiens with 4 samples.

Results

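The miR-15, miR-16, miR-497 and miR-424 family was followed as 10 of the 2656 mature miRNAs counted in cortical interneurons made from human embryonic stem cells (hESC). The members were chosen by name (hsa-miR-15a-5p, hsa-miR-15b-5p, hsa-miR-15b-3p, hsa-miR-16-5p, hsa-miR-16-2-3p, hsa-miR-195-5p, hsa-miR-497-5p, hsa-miR-424-5p, hsa-miR-424-3p and hsa-miR-503-5p), and all 10 had an entry in the table. The prefix for the species is left out from here on. Cortical interneurons are inhibitory nerve cells, here derived in culture from H1, an established hESC line. Small RNA-seq was done on 2 cultures grown with around 50 to 100 mM ethanol for 7 days (exposed) and on 2 cultures grown for 7 days without ethanol (unexposed), and the study's methods give another day without ethanol before collection. All 4 libraries therefore come from 1 cell line, with ethanol as the stated difference, and a p-value measures the spread between these cultures only, which may be technical.

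Depth was 12100425 to 24858230 counts per library, and both exposed libraries were deeper than both unexposed libraries, so depth and exposure cannot be told apart. A count of 3, used as the floor of detection, was worth 0.121 to 0.248 CPM (counts per 1000000 counts of the library). Levels are given in CPM after TMM scaling, which multiplies each library's total by a factor that aligns the bulk of its miRNAs with the other libraries. As a check on the cell type, the 6 neuronal miRNAs listed for it summed to 292967 to 473479 CPM per library. Most of this came from miR-9-5p (2024573 to 4683578 counts) and miR-7-5p (1879196 to 3291739 counts). miR-128-3p had 346196 to 1228945 counts and miR-124-3p 28176 to 136324 counts. miR-137-3p (750 to 2064 counts) and miR-138-5p (504 to 1562 counts) were far lower. The 8 miRNAs of pluripotent cells summed to 2.70 to 4.20 CPM with 2 of them (miR-367-3p and miR-373-3p) at 0 counts, and the 3 leukocyte miRNAs to at most 0.0777 CPM with 2 (miR-142-3p and miR-223-3p) at 0 counts. The sums were 75.3 to 115 CPM for glia, 80.2 to 111 CPM for mesenchymal and smooth muscle cells, 178 to 404 CPM for skeletal muscle, 807 to 1021 CPM for endothelium, 0.0777 to 0.698 CPM for erythroid cells and 26287 to 27779 CPM for the miR-17 to miR-92a cluster, which is high in dividing cells. miR-92a-3p, at 253047 to 594061 counts, gave most of the sum of that cluster. Likewise miR-1-3p gave most of the skeletal muscle sum and miR-126-3p most of the endothelial sum. In these bulk libraries, fewer cells of a type and less RNA per cell cannot be told apart.

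A miRNA is cut from a hairpin precursor, whose 5p and 3p arms can each be loaded into Argonaute to guide it to mRNAs. Pairing rests mainly on the seed near the 5′ end, so miRNAs with 1 seed can act on the same sites. Guides of the miR-15/16 group are known for repressing cyclins of the D and E types, CDK6, CHEK1, WEE1 and the survival factor BCL2, and for being high in cells that leave the cell cycle, as neurons do. Deletion of MIR15A and MIR16-1 is a frequent lesion in chronic lymphocytic leukaemia. miR-195 is known for the arrest of heart muscle cell division after birth, and miR-424 and miR-503 for lowering CDC25A in differentiating muscle cells. No cell cycle readout was part of these counts.

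The mature sequences, as RefSeq gives them on GRCh38.p14, show which members could act alike, and they were found for all 10. Capitals mark the seed, bases 2 to 8. The first 6 share the seed AGCAGCA, whose complement in a target is UGCUGCU, and miR-503-5p differs from them by 1 base of the seed.
miR-16-5p: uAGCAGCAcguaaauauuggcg
miR-15b-5p: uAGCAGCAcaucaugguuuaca
miR-15a-5p: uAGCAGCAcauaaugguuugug
miR-195-5p: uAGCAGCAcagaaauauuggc
miR-497-5p: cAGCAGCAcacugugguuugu
miR-424-5p: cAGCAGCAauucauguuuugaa
miR-503-5p: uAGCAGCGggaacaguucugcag

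The other 3 members are opposite arms with seeds of their own. They are shown because each names a single precursor, and miR-16-1-3p and miR-195-3p, which are relatives and not members, are set beside them for the same reason.
miR-15b-3p: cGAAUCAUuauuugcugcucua
miR-16-2-3p: cCAAUAUUacugugcugcuuua
miR-424-3p: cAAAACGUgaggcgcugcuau
miR-16-1-3p: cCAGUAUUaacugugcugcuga
miR-195-3p: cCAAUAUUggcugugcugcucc

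RefSeq gave a sequence for 2367 miRNAs of the table, and 7 of them have the seed AGCAGCA. The one that is not a member is miR-6838-5p, with 1 to 5 counts per library. Among these sequences miR-16-2-3p shares its seed with miR-195-3p, while the seeds of miR-15b-3p and miR-424-3p belong to no other miRNA. miR-16-5p and miR-195-5p are the closest members, with 19 of 21 positions alike and the substitutions G10A and U11G (the base of miR-16-5p first, positions counted from 1 at the 5′ end). miR-195-5p counts were 0.434% to 0.702% of the miR-16-5p counts. How the authors assigned reads that match more than 1 miRNA is not given in the sources used here, so the lower member of that pair is uncertain to this extent. The members are 21 to 23 bases long, so their CPM need no correction for length, but adapter ligation depends on the ends of a small RNA, and ratios between different miRNAs need not be ratios of molecules.

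The members come from 4 short clusters, located here on GRCh38 with GENCODE 29 by gene name. MIR15A (chr13:50049119-50049201) and MIR16-1 (chr13:50048973-50049061) lie 57 bases apart on the minus strand within the noncoding gene DLEU2, MIR15A over an exon of at least 1 transcript and MIR16-1 in an intron. MIR15B (chr3:160404588-160404685) and MIR16-2 (chr3:160404745-160404825) lie 59 bases apart on the plus strand in an intron of SMC4, which encodes a subunit of the condensin complex that packs chromosomes for mitosis. MIR497 (chr17:7017911-7018022) and MIR195 (chr17:7017615-7017701) lie 209 bases apart over exons of MIR497HG. MIR424 (chrX:134546614-134546711) and MIR503 (chrX:134546328-134546398) lie 215 bases apart in MIR503HG, MIR424 over an exon. The mature miR-16-5p is made from both MIR16-1 and MIR16-2, and its counts cannot be divided between them.

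The 2 guides miR-16-5p and miR-15b-5p were the most abundant members in every library. miR-16-5p came first, with 44078 and 40160 counts with ethanol against 20668 and 19798 counts without it. Its level was 1748 and 1650 CPM against 1752 and 1539 CPM, and it ranked between 49 and 58 among all miRNAs by count. Unexposed replicate 2 stood a little below the others. miR-15b-5p, the guide of the MIR15B precursor, had 13207 and 10570 counts with ethanol against 5827 and 5846 counts without it, or 524 and 434 CPM against 494 and 454 CPM. The groups overlapped for both of these guides.

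miR-16-2-3p, the opposite arm of MIR16-2, had 5586 and 5994 counts with ethanol, 1959 in unexposed replicate 1 and 3758 in unexposed replicate 2. This came to 221 and 246 CPM with ethanol against 166 and 292 CPM without it, so both exposed cultures lay between the unexposed ones, which were 1.76-fold apart. miR-15a-5p, the guide of MIR15A, had 1627 and 1260 counts with ethanol against 489 and 547 counts without it, or 64.5 and 51.8 CPM against 41.5 and 42.5 CPM. Each exposed culture was above each unexposed culture. miR-15b-3p had 971 and 1087 counts with ethanol against 602 and 751 counts without it, or 38.5 and 44.7 CPM against 51.0 and 58.4 CPM. Here each exposed culture was below each unexposed culture.

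The arms of the other clusters were much rarer. miR-195-5p had 253 and 208 counts with ethanol against 145 and 86 counts without it, or 10.03 and 8.54 CPM against 12.3 and 6.68 CPM. miR-424-3p had 124 and 97 against 42 and 77 counts, or 4.92 and 3.98 CPM against 3.56 and 5.98 CPM. For both miRNAs the exposed libraries lay within the range of the unexposed libraries. miR-503-5p had 56 and 43 against 21 and 27 counts, or 2.22 and 1.77 CPM against 1.78 and 2.10 CPM. miR-497-5p had 18 and 11 against 6 and 6 counts, or 0.714 and 0.452 CPM against 0.509 and 0.466 CPM. miR-424-5p had 9 and 5 against 3 and 2 counts, or 0.357 and 0.205 CPM against 0.254 and 0.155 CPM. The groups overlapped for each of these 5 miRNAs.

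In the order of mean level over the 4 libraries, from miR-16-5p (1672 CPM) through miR-15b-5p (477), miR-16-2-3p (231), miR-15a-5p (50.1), miR-15b-3p (48.1), miR-195-5p (9.39), miR-424-3p (4.61), miR-503-5p (1.97) and miR-497-5p (0.535) to miR-424-5p (0.243 CPM), the ranges of neighbours were apart except for miR-15a-5p and miR-15b-3p. For the rarest members the order rests on few counts. miR-497-5p was at 0.810 CPM of the total in exposed replicate 1 (95% Wilson interval 0.512 to 1.28) and miR-424-5p at 0.405 CPM (0.213 to 0.770), so their intervals overlapped within that library. Without molecular identifiers in the reads, such intervals and the floor of 3 counts hold counting error and nothing else.

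**Figure D1:**
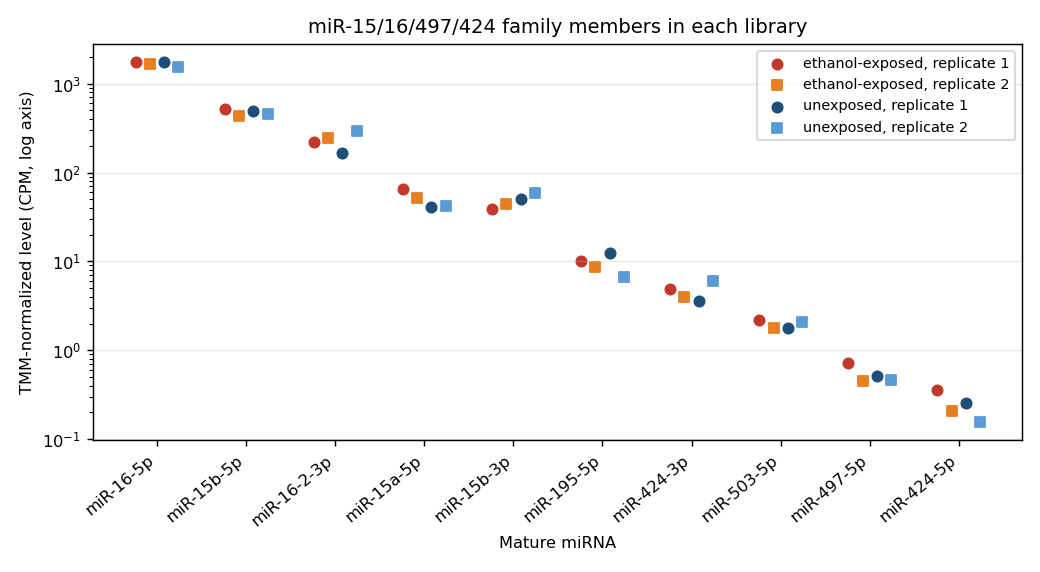
TMM-normalized level (CPM, log axis) of each member, 1 point per library, with the exposed libraries in red and orange and the unexposed libraries in blue. The members fall from miR-16-5p, at 1539 to 1752 CPM, to miR-424-5p, at 0.155 to 0.357 CPM, and the colours are apart for miR-15a-5p and miR-15b-3p only.

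The first question of the design was whether ethanol exposure moved any member. Of the 10 members, 8 passed the filter on low counts, and miR-497-5p and miR-424-5p did not. In edgeR's quasi-likelihood test 0 of the 8 had an adjusted p under 0.05, against 0.0% of the 863 miRNAs tested, and 0 of the 8 had an unadjusted P under 0.05, against 4.52%. The count was also 0 by limma-voom and by DESeq2, adjusted or not. The groups did not overlap for 2 of the 8, miR-15a-5p and miR-15b-3p, which is 1 in each direction, while 33.4% of all tested miRNAs did not overlap (18.8% with the exposed cultures higher and 14.6% with them lower). The log2 fold change was above 0 for 5 of the 8, against 48.8% of all tested miRNAs, and its median was 0.022 against -0.010 over all of them.

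The abundant guides showed the narrowest intervals. miR-16-5p averaged 1699 CPM with ethanol (± 69.3 SD, n = 2) and 1645 CPM without it (± 151 SD, n = 2). The log2 fold change of exposed against unexposed cells was 0.046, with a standard error (SE) of 0.21, and the 95% interval of the fold, 0.737 to 1.45, left out a 2-fold change in either direction. miR-15b-5p averaged 479 CPM with ethanol (± 63.3 SD, n = 2) and 474 CPM without it (± 28.0 SD, n = 2). Its log2 fold change of 0.015 (SE 0.22) had a fold between 0.714 and 1.43. Both values turned negative under upper quartile scaling, to -0.061 and -0.096. Over the 6 guides with the seed AGCAGCA, the summed level was 2347 and 2145 CPM with ethanol against 2301 and 2043 CPM without it, and the groups overlapped. The difference of the mean log2 sums was 0.050, and an exact two-sided permutation test gave p = 0.667, where 2 cultures against 2 cannot give less than 0.333. With upper quartile scaling this difference was -0.058.

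miR-15a-5p had the largest estimate among the members tested. It averaged 58.1 CPM with ethanol (± 9.02 SD, n = 2) and 41.98 CPM without it (± 0.746 SD, n = 2), which gave a log2 fold change of 0.47 (SE 0.25). Its interval reached from 0.933-fold to 2.06-fold, the only interval of the 8 that included a 2-fold change. edgeR gave an unadjusted P of 0.0939 and a Benjamini-Hochberg adjusted p of 0.922. Over the alternatives that kept all 4 libraries the adjusted p was 0.771 or higher, while the exact permutation p was 0.333, the smallest possible. The estimate stayed positive with each library left out, from 0.30 without exposed replicate 1 to 0.62 without exposed replicate 2. The groups were also apart for the pluripotent marker sum (8 miRNAs), at 2.70 and 3.33 CPM with ethanol against 3.81 and 4.20 CPM without it, and for the endothelial marker sum (2 miRNAs, neither at 0), at 1021 and 927 CPM against 894 and 807 CPM. The other marker sums overlapped, but single markers within them could differ. By edgeR the log2 fold change was 0.77 for neuronal miR-124-3p (unadjusted P 0.0316) and -0.90 for miR-19b-3p of the miR-17 to miR-92a cluster (unadjusted P 0.0279). Both had an adjusted p of 0.922. Neuronal miR-7-5p went the other way, lower relative to depth in each exposed culture. The part of such markers in the values of miR-15a-5p and miR-15b-3p was not tested.

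miR-15b-3p averaged 41.6 CPM with ethanol (± 4.35 SD, n = 2) and 54.7 CPM without it (± 5.18 SD, n = 2). The log2 fold change of -0.40 (SE 0.24) had a fold between 0.514 and 1.12, and by edgeR the unadjusted P was 0.145 and the adjusted p 0.922. For miR-16-2-3p the log2 fold change was 0.030 (SE 0.29), and it ranged from -0.32 without unexposed replicate 1 to 0.49 without unexposed replicate 2. For miR-195-5p it was -0.028 (SE 0.35), with a range of -0.41 without unexposed replicate 2 to 0.47 without unexposed replicate 1. miR-424-3p gave -0.10 (SE 0.35) and ran from -0.43 without unexposed replicate 1 to 0.31 without unexposed replicate 2. Each of these 3 estimates thus had opposite signs without the one and without the other unexposed culture. miR-503-5p gave 0.038 (SE 0.33), with a fold between 0.604 and 1.74, and the edgeR adjusted p of each of the 6 members apart from miR-15a-5p and miR-15b-3p was between 0.983 and 0.988.

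**Figure D2:**
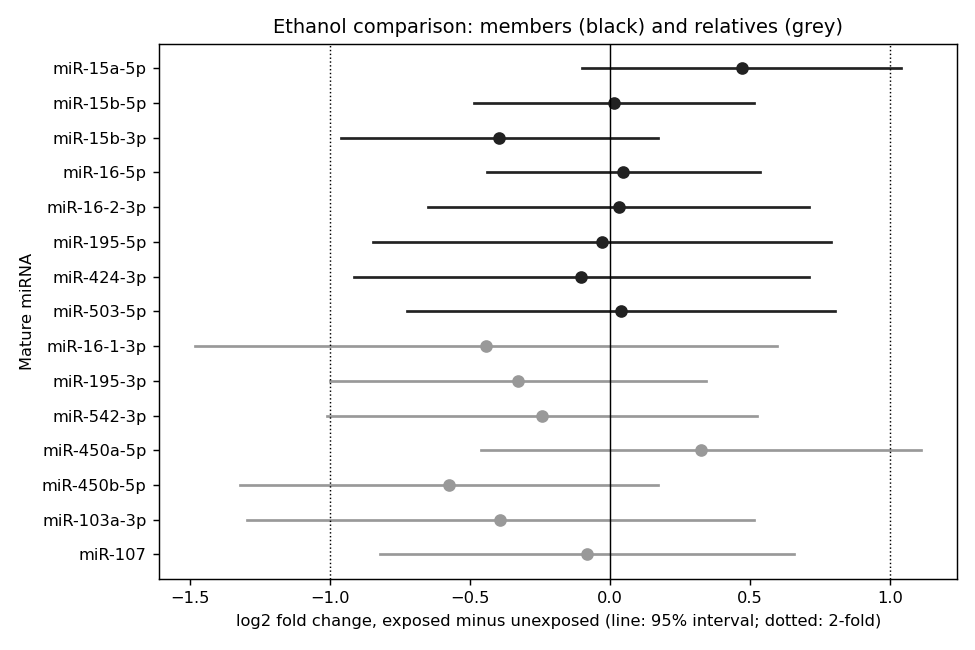
Log2 fold change of exposed against unexposed cells from edgeR for the 8 members tested (black) and the 7 relatives tested (grey), with 95% intervals as lines and 2-fold changes as dotted lines. Every interval crosses 0, and among the members only that of miR-15a-5p, from 0.933-fold to 2.06-fold, reaches a dotted line.

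miR-16-5p and miR-15b-5p made up most of the seed in every library. miR-16-5p made up 74.5% and 76.9% of the summed counts of the 6 guides with ethanol, against 76.2% and 75.3% without it. miR-15b-5p made up 22.3% and 20.2% against 21.5% and 22.2%. miR-15a-5p made up 2.75% (95% Wilson interval 2.62 to 2.88%) and 2.41% (2.28 to 2.55%) with ethanol, against 1.80% (1.65 to 1.97%) and 2.08% (1.92 to 2.26%) without it. Its share was higher in each exposed than in each unexposed library, with an exact permutation p of 0.333. The intervals hold counting error only, and those of the 2 exposed libraries did not overlap each other either. miR-195-5p made up 0.327% to 0.534%, and miR-497-5p and miR-424-5p together the small rest.

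**Figure D3:**
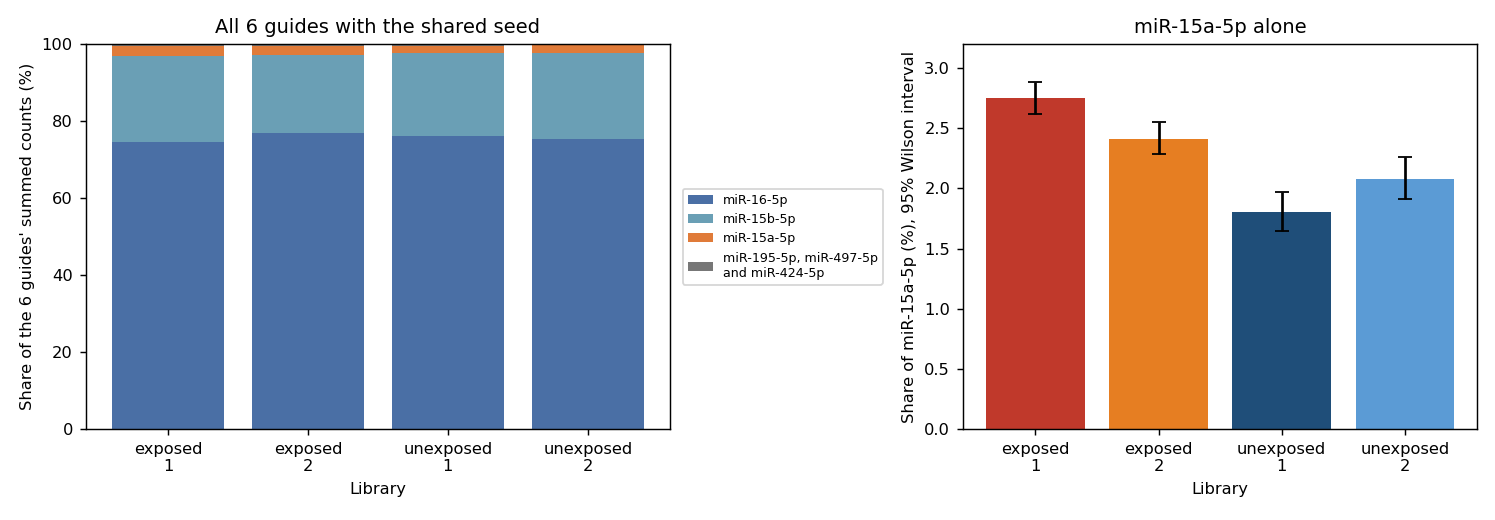
Left, the share of each guide in the summed counts of the 6 guides with the seed AGCAGCA, stacked for each library (%). Right, the share of miR-15a-5p alone with its 95% Wilson interval: the exposed libraries, at 2.75% and 2.41%, sit above the unexposed ones, at 1.80% and 2.08%.

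The DLEU2 and SMC4 clusters make the same miR-16-5p but different miR-15 guides and opposite arms, which were read as arms of a single cluster. The SMC4 cluster (miR-15b-5p, miR-15b-3p and miR-16-2-3p) had 19764 and 17651 counts with ethanol against 8388 and 10355 counts without it. The DLEU2 cluster (miR-15a-5p, miR-15a-3p and miR-16-1-3p) had 1638 and 1274 counts against 496 and 557 counts. Nearly all of these were miR-15a-5p, with 1627 and 1260 counts against 489 and 547 counts. The ratio of the clusters was 12.1 and 13.9 with ethanol against 16.9 and 18.6 without it. The SMC4 arms were thus more abundant in each library, and the groups did not overlap. That separation and the share of miR-15a-5p in the seed show the same difference of miR-15a-5p. Among all single miRNAs tested, 33.4% did not overlap, and no such share was computed for ratios between clusters. miR-16-2-3p alone exceeded miR-16-1-3p by 508-fold and 428-fold with ethanol and by 280-fold and 376-fold without it, where miR-16-1-3p had 7 to 14 counts. The groups were apart here too, with a difference of the mean log2 ratios of 0.55 and an exact permutation p of 0.333, and the difference was 0.32 without unexposed replicate 1 and 0.78 without unexposed replicate 2. These ratios hold within a library and do not depend on its scaling.

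Within that comparison, the ratio of miR-15b-5p to miR-15a-5p was 8.12 and 8.39 with ethanol against 11.9 and 10.7 without it. The difference of the mean log2 ratios was -0.45 (SD 0.034 in exposed and 0.11 in unexposed cells, n = 2 each). It restates the difference of miR-15a-5p, whose log2 fold change was 0.47, while that of miR-15b-5p was 0.015. The share of all miRNA pairs that were as far apart was not computed. miR-15a-5p was 1.68 and 1.16 times miR-15b-3p in the exposed libraries, and 0.812 and 0.728 times it in the unexposed libraries. The order of these neighbours thus differed between the groups. Each of them was already apart between the groups, in opposite directions, so their ratio had to be apart too and is no further support. The exact permutation p was 0.333 for each of these ratios and for that of the clusters, all chosen after the values were seen.

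The arms of a precursor were also compared within each library. The 5p arm of MIR15B exceeded the 3p arm by 13.6-fold and 9.72-fold with ethanol and by 9.68-fold and 7.78-fold without it. The groups were just apart, with a difference of the mean log2 ratios of 0.41 and an exact permutation p of 0.333, while 29.7% of all precursors with both arms tested were apart. The difference was 0.16 without exposed replicate 1, 0.25 without unexposed replicate 2 and 0.65 without exposed replicate 2. In MIR424 the 3p arm, which lacks the family seed, was the more abundant one. miR-424-5p was at 7.26% and 5.15% of miR-424-3p with ethanol, against 7.14% and 2.60% without it, on at most 9 counts of the 5p arm. Among all precursors with both arms tested, which leave out MIR424, 100 (51.3%) had more 5p than 3p counts.

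miR-195-5p exceeded miR-195-3p by 2.16-fold and 1.93-fold with ethanol and by 2.27-fold and 1.12-fold without it. miR-16-5p, which 2 precursors make, exceeded miR-16-2-3p by 7.89-fold and 6.70-fold with ethanol and by 10.6-fold and 5.27-fold without it. The 5p to 3p ratio was lowest in unexposed replicate 2 for all 4 of these comparisons, and in 50 (25.6%) of all precursors with both arms tested. That set includes miR-15b and miR-195. It leaves out miR-424, whose 5p arm did not pass the filter, and the comparison of miR-16-5p with miR-16-2-3p. The opposite arms of 3 members were at 0 counts in every library. Taking 3 counts as the floor of each library, miR-15a-5p was at least 163-fold higher than miR-15a-3p, miR-503-5p at least 7.00-fold higher than miR-503-3p, and miR-497-5p at least 2.00-fold higher than miR-497-3p.

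**Figure D4:**
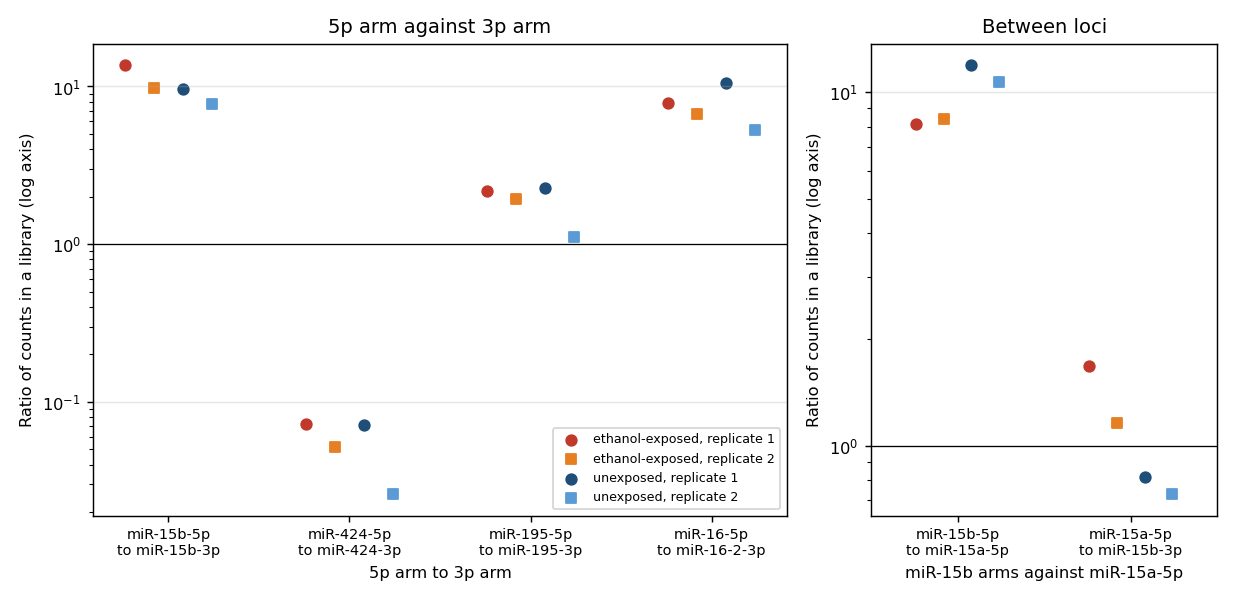
Ratios of counts within a library (log axes), 1 point per library. Left, 5p arm to 3p arm, which is above 1 for miR-15b, miR-195 and miR-16 and between 0.0260 and 0.0726 for miR-424. Right, miR-15b-5p to miR-15a-5p and miR-15a-5p to miR-15b-3p, where the exposed libraries are apart from the unexposed libraries. Both of these ratios were chosen after the values were seen and repeat the separation of miR-15a-5p and miR-15b-3p.

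Summed over the members that belong to a single cluster, the levels of the SMC4, MIR497HG and MIR503HG clusters overlapped between the groups, while the DLEU2 cluster is represented by miR-15a-5p alone. The SMC4 arms summed to 784 and 725 CPM with ethanol against 711 and 805 CPM without it. The MIR497HG guides summed to 10.7 and 8.996 CPM against 12.8 and 7.15 CPM, and the MIR503HG arms to 7.49 and 5.96 CPM against 5.59 and 8.24 CPM. The exact permutation p was 1 for each of these 3 sums, and the exposed values lay within the unexposed range each time. Their signs depended on the scaling, and the values are given with the alternatives.

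The 16 relatives of the members were the opposite arms, the X-linked neighbours miR-542 and miR-450, and miRNAs with the same or a near seed. Of these, 7 passed the filter, 4 had counts but did not pass, and 5 were at 0 counts in every library. In edgeR's quasi-likelihood test 0 of the 7 had an adjusted p under 0.05 and 0 an unadjusted P under 0.05, as by limma-voom and DESeq2. The groups did not overlap for 4 of the 7, against 33.4% of all tested miRNAs. The exposed cultures were lower for 3 of these 4 (14.6% of all tested miRNAs) and higher for 1 (18.8%), and the log2 fold change was above 0 for 1 of the 7 (48.8%). miR-450b-5p had 99 and 123 counts with ethanol against 66 and 100 counts without it, and its log2 fold change was -0.58 (SE 0.32). miR-450a-5p, from the same X-linked cluster, had 43 and 40 against 14 and 19 counts, and its log2 fold change was 0.32 (SE 0.34). These neighbours therefore had estimates of opposite sign, and neither was past the test. miR-542-3p gave -0.24 (SE 0.33), miR-195-3p -0.33 (SE 0.29) and miR-16-1-3p -0.44 (SE 0.45). Leaving out 1 library kept these signs but moved miR-542-3p to -0.013 without exposed replicate 1 and -0.056 without unexposed replicate 1. miR-103a-3p and miR-107, which carry the family's AGCAGCA from their first base and so have the seed GCAGCAU, were at 16728 to 38355 CPM and 298 to 572 CPM. The unexposed cultures stood apart for both, at 38355 and 19004 CPM for miR-103a-3p and 572 and 298 CPM for miR-107, and the log2 fold changes were -0.39 (SE 0.39) and -0.082 (SE 0.32). For miR-103a-3p the log2 fold change was -0.82 without unexposed replicate 2, with an unadjusted P of 0.0032 and an adjusted p of 0.0952 by edgeR, and 0.20 without unexposed replicate 1.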

How the data were processed

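Small RNA-seq libraries of 4 cultures, 2 exposed to ethanol and 2 unexposed, were analysed, grouped by their titles. The libraries were built with a NEBNext small RNA kit, and the authors used CAP-miRseq to make the deposited table, which holds whole-number counts of reads for each mature miRNA and is not normalized. The submitters' processing notes name the build hg19. The aligner's settings, the miRNA annotation release and the treatment of reads that match several miRNAs are not given in the sources used here.

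Everything after the counts was computed here. edgeR 4.0.16 in R 4.3.3 was used with filterByExpr (minimum count 10, minimum total 15), which kept 863 of 2656 miRNAs, TMM factors, the quasi-likelihood test without covariates and Benjamini-Hochberg adjustment over all miRNAs tested, with a threshold of 0.05. The standard error was the log2 fold change divided by the root of its F statistic. limma-voom (limma 3.58.1), DESeq2 1.42.0, other scalings and filters, a replicate block and leaving out each library were alternatives. The fit was tested on simulated data. Log2 arm ratios had 0.5 added to each count, and folds between arms had nothing added. The replicates were not repeats of 1 library (chi-square per degree of freedom 795 and 712).

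All members are named, as are relatives that passed the filter and the opposite arms of the precursors compared. miR-6838-5p, which did not pass, was named after its values were seen. The members and lists were chosen with earlier results of these data known. Counts carry no coordinates, so positions came from GENCODE 29 by name and sequences from RefSeq.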

Additional observations from a re-analysis of the deposited data

How the results depend on the processing

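The number of members and of relatives with an adjusted p under 0.05 stayed at 0 under every alternative run, including each fit without 1 library, where the lone culture of a group is assumed to vary like the others. Over all tested miRNAs it was 6 with no filter on low counts and ranged from 1 to 16 with a library left out (1 without exposed replicate 1, 5 without exposed replicate 2, 7 without unexposed replicate 1 and 16 without unexposed replicate 2), and 0 otherwise. Scaling by library size only moved all log2 fold changes by a median of 0.15, and upper quartile scaling by -0.11.

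The replicate numbers are shared by label only. Over the 863 miRNAs, not independent of each other, the deviations of libraries that share a number correlated at -0.186. With the replicate block, 25 of all miRNAs had an unadjusted P under 0.05 instead of 39, and 59 had with the replicate numbers crossed, an alternative added after the data were seen. In both fits 0 members did. The block left the sums and ratios unchanged by construction, and turned 1 member estimate, that of miR-195-5p, to 0.026 (0.022 crossed).

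Estimates near 0 changed sign with the scaling or tool, and the cause was not tested. With upper quartile scaling the log2 difference was -0.096 for miR-15b-5p, -0.061 for miR-16-5p, -0.078 for miR-16-2-3p, -0.073 for miR-503-5p, -0.058 for the seed sum and -0.068 for the sum of the MIR497HG guides. With library size only it was 0.17 for miR-195-5p, 0.021 for miR-424-3p, 0.11 for miR-107, 0.15 for the sum of the SMC4 arms and 0.13 for the sum of the MIR503HG arms. DESeq2 size factors and DESeq2 gave -0.024 for miR-15b-5p and -0.0018 for miR-16-2-3p, and limma-voom 0.031 for miR-195-5p.

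With 1 library left out the log2 difference ranged from -0.12 to 0.14 for miR-15b-5p, -0.052 to 0.14 for miR-16-5p, -0.32 to 0.49 for miR-16-2-3p, -0.41 to 0.47 for miR-195-5p, -0.43 to 0.31 for miR-424-3p, -0.13 to 0.19 for miR-503-5p, -0.82 to 0.20 for miR-103a-3p, -0.48 to 0.46 for miR-107, -0.51 to -0.013 for miR-542-3p, -0.65 to -0.24 for miR-16-1-3p, -0.79 to -0.32 for miR-450b-5p and 0.18 to 0.49 for miR-450a-5p. The sums ranged from -0.036 to 0.14 (seed), -0.094 to 0.084 (SMC4), -0.38 to 0.46 (MIR497HG) and -0.30 to 0.26 (MIR503HG). The arm ratios ranged from -0.33 to 1.02 (miR-424), -0.15 to 0.87 (miR-195), -0.54 to 0.46 (miR-16), 0.16 to 0.65 (miR-15b) and 0.32 to 0.78 (miR-16-2-3p to miR-16-1-3p), and the shares of the seed from -0.11 to 0.030 (miR-15b-5p), -0.024 to 0.022 (miR-16-5p), -0.37 to 0.33 (miR-195-5p) and -0.093 to 0.44 (miR-497-5p). miR-15a-5p stayed positive and miR-15b-3p negative under each alternative. Of 208 alternative values for members and relatives 180 kept their sign. Depth limits miR-424-5p and miR-497-5p, which had 2 to 18 counts per library and were tested only in the fit with no filter on low counts. There neither had an adjusted p under 0.05 by edgeR, and the change that could have been detected was not computed.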
